A study of Mus musculus with 15 samples.

Results

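The interleukin-1 family and its receptors are 10 genes here: the ligands Il1a, Il1b, Il18 and Il33, the receptor antagonist Il1rn, and the receptor genes Il1r1, Il1r2, Il1rap, Il1rl1 and Il18r1. They were taken by gene name from the 27751 features of a mouse expression array, and all 10 were found, on 19 probes. Il33 was found through its accession, because the array design still carries its older clone name.

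Interleukin-1 alpha and beta signal through the type I receptor, which pairs with the accessory protein encoded by Il1rap, and drive the transcription factor NF-kappa B. Interleukin-33 acts through the receptor encoded by Il1rl1, called ST2, and interleukin-18 through the receptor that contains the product of Il18r1. Interleukin-1 beta and interleukin-18 are made as inactive precursors that caspase-1 cuts inside inflammasomes, whereas interleukin-33 is a nuclear protein released from damaged cells. The family is checked by the antagonist Il1rn, by the decoy receptor Il1r2 and by a soluble short form of ST2. In the gut, interleukin-18 is made by the epithelium, and the other ligands are known from myeloid, stromal and epithelial cells.

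All samples came from male C57BL/6J mice heterozygous for Apc Min-FCCC, an inactivating allele of the Wnt pathway tumor suppressor Apc, which were examined by colonoscopy at 6 to 8 weeks of age for colon tumors. The 4 groups were adenoma cells of tumor-bearing mice given sulindac at 300 ppm and atorvastatin at 100 ppm in chow for 7 days (4 arrays), adenoma cells of tumor-bearing mice without drug (3 arrays), normal colon epithelium of tumor-bearing mice given atorvastatin at 100 ppm (4 arrays), and normal colon epithelium of tumor-free mice given atorvastatin at 100 ppm (4 arrays). Sulindac, an anti-inflammatory drug, inhibits cyclooxygenases, and atorvastatin, a statin, lowers cholesterol synthesis. In the protocol, mice with tumors received either no drug or the combination, yet the labels of their normal epithelium name atorvastatin alone. The labels were followed. Because the epithelium groups both carried atorvastatin, tissue and drug cannot be told apart between untreated adenoma and epithelium, and between treated adenoma and epithelium sulindac differs along with the tissue.

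Cells were obtained by laser microdissection and their RNA was amplified before labelling, so each array reports a small captured population. The share of probes well above background ran from 56.1% to 75.1% per array. Within groups, 6 pairs of arrays were near-identical, with an SD of the log2 difference of 0.0998 to 0.175, below the spot noise of 0.188 to 0.218, against 0.693 to 1.33 for the 15 other pairs. The labels describe biological replicates; these arrays differed by less than the sampling noise and were counted as 1 sample, which left 10 samples. Treated adenoma sample 2 is the mean of arrays 2, 3 and 4, untreated adenoma sample 1 of arrays 1 and 2, tumor-bearing epithelium sample 1 of arrays 1 and 3, and tumor-free epithelium sample 3 of arrays 3 and 4. Across groups, array 2 of the tumor-bearing and array 2 of the tumor-free epithelium differed by an SD of 0.19 at a noise of 0.178, close to that noise; whether they hold the same RNA was not tested, and values without this pair are given below. The number of samples limits the precision of every value.

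The labelled tissues were checked against their markers. Marker sums are the log2 of the summed levels, so the brightest probes weigh most in them. Wnt target genes such as Axin2 and Lgr5 summed to 7.11 to 7.73 in treated and 7.22 to 7.46 in untreated adenomas. In epithelium they summed to 3.53 to 3.96 in the tumor-bearing and 3.5 to 4.22 in the tumor-free group. Epithelial markers such as Epcam and Krt8, summed, lay between 8.49 and 9.51 in every sample, although 3 of 10 (Cdx2, Krt19 and Krt20) were called lower in adenomas, and fibroblast markers between 6.61 and 7.37. Fibroblast RNA was thus measured in every sample of either tissue.

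Levels are log2 values of the processed intensity relative to each array's 75th percentile, so 0 is the level of a gene at that percentile. They are comparable between samples for one probe but not between probes. A difference was called where limma's Benjamini-Hochberg adjusted p, over all genes tested in that comparison, was under 0.05. Only genes whose probe cleared background in all arrays of 1 or more of the compared groups were tested.

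Adenomas expressed more of most of the family than normal epithelium did. With both adenoma groups set over both epithelium groups, 6 of the 10 members were higher, namely Il1a, Il1b, Il33, Il1r2, Il1rl1 and Il18r1, and 1, Il18, was lower. The background is 21.9% of 18913 genes called in this comparison, 9.22% higher and 12.7% lower. The median difference of the 10 members was 2.92, against -0.17 over all genes tested. Il1a and Il18r1 were above background on every array of the adenoma groups but of neither epithelium group. They were therefore tested through the adenomas alone, where a lower result was less open to them. Both enter the count and the median. Between the epithelium groups 8 members and 17648 genes could be tested. Il1rn, Il1r1 and Il1rap were not called.

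The pairwise comparisons share samples with each other and with the one over all groups. In each of them Il1a passed the background filter through the adenoma group alone. Over tumor-bearing epithelium, Il1a, Il1b, Il33, Il1r2 and Il1rl1 were higher and none was lower in treated adenomas, where 13.5% of 17003 genes were called, 6.56% higher and 6.89% lower. The same 5 members were higher in untreated adenomas, where 11.7% of 17403 genes were called, 5.15% higher and 6.56% lower. Over tumor-free epithelium, they were also higher in treated adenomas, with a background of 10.3% of 18427 genes, 4.6% higher and 5.73% lower. In untreated adenomas they were higher and Il18 was lower, with a background of 9.85% of 18619 genes, 4.17% higher and 5.68% lower. Fewer cells of a type and less RNA per cell cannot be told apart in such pooled captures.

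**Figure D1:**
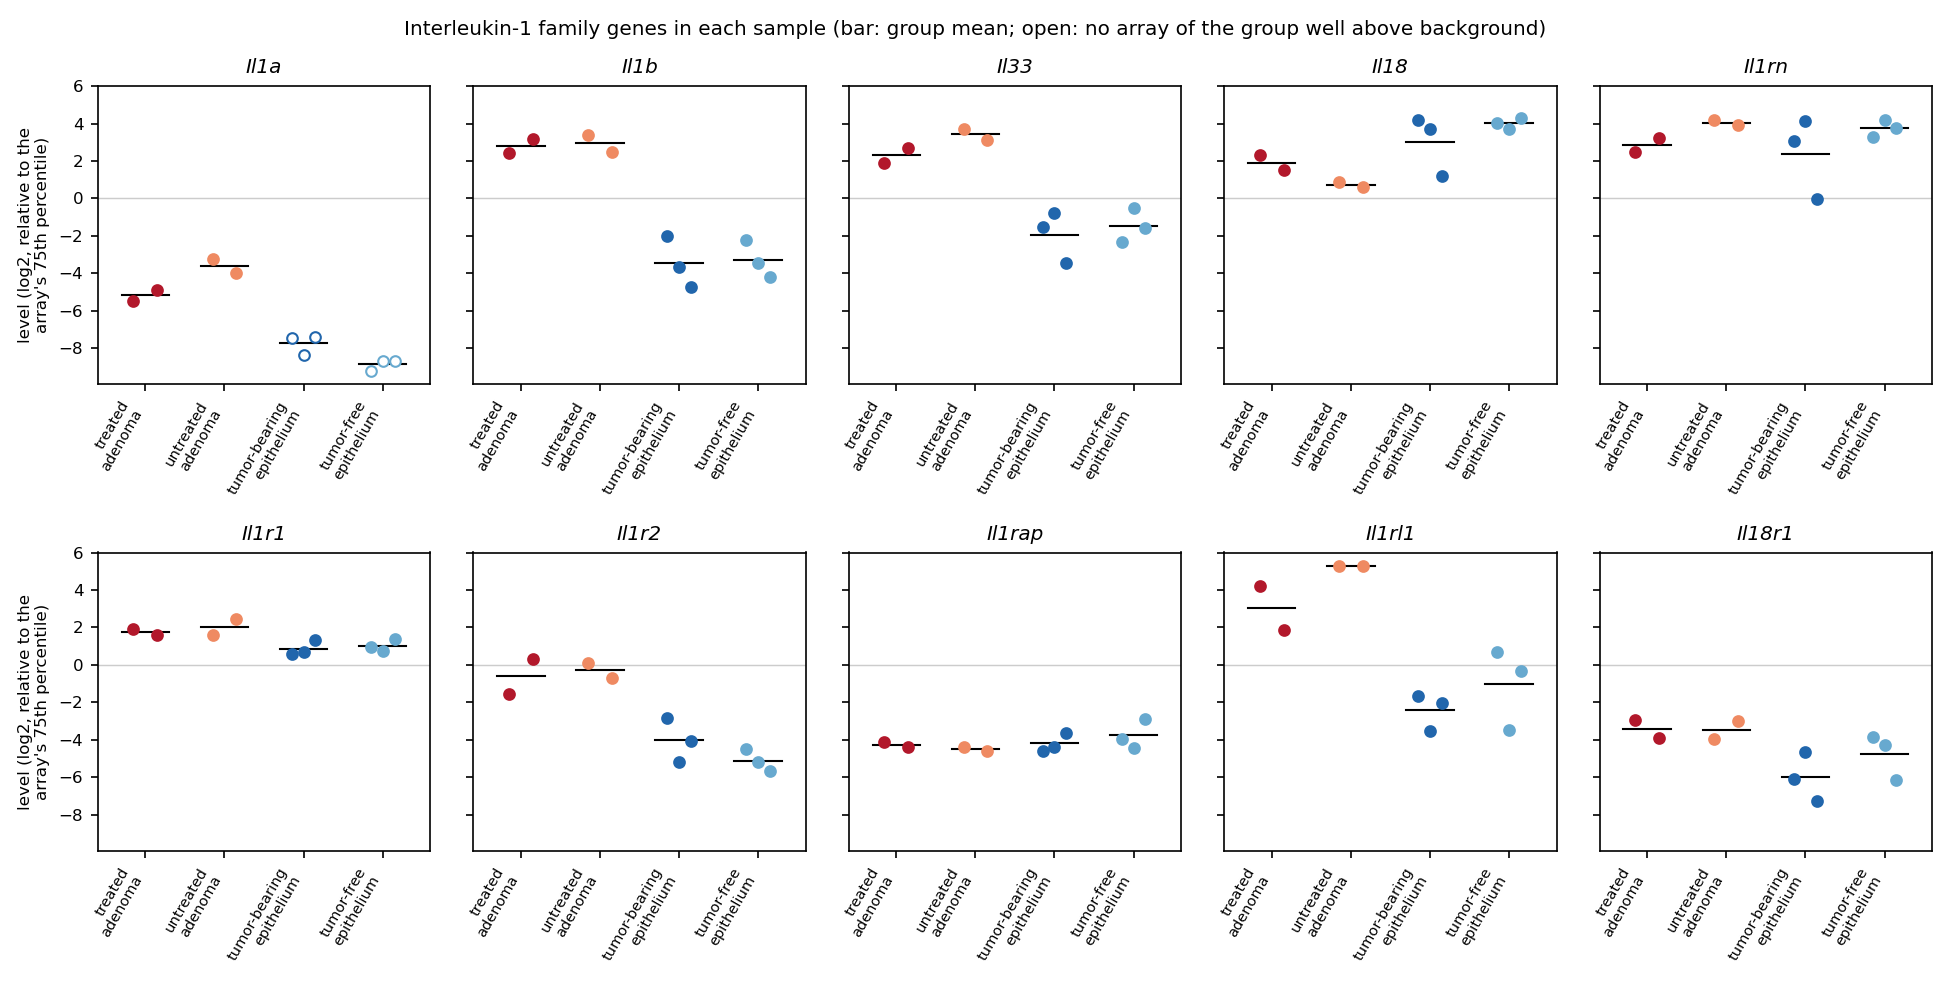
Level of each member in each sample (vertical axis, log2 relative to the array's 75th percentile), with 1 point per sample, a bar at the group mean and open points where no array of the group was well above background. Il1a, Il1b, Il33, Il1r2 and Il1rl1 lie higher in all 4 adenoma samples than in all 6 epithelium samples, and Il18 lies lower in the adenomas than in all epithelium samples but 1.

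Il1b encodes interleukin-1 beta, the main inflammatory cytokine of the family, and is measured here by 10 spots of 1 probe at chr2:129105464-129105523 (build mm7, minus strand). Its sequence is shown because the highest called fold of any ligand rests on it.
Il1b probe: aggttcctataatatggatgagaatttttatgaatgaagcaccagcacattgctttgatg
The level was 2.44 and 3.19 in the treated adenoma samples and 3.41 and 2.47 in the untreated ones. It was -1.99, -3.65 and -4.71 in tumor-bearing epithelium and -2.23, -3.45 and -4.18 in tumor-free epithelium. Every adenoma sample thus stood more than 4 log2 units above every epithelium sample, and the probe was above background on all 15 arrays. Il1b was 75.8-fold higher in adenomas than in epithelium (log2 difference 6.24 ± 0.57 SE, adjusted p = 5.02e-05, limma). Against tumor-bearing epithelium alone it was 76.8-fold higher in treated (adjusted p = 0.000789) and 83.7-fold higher in untreated adenomas (adjusted p = 0.00103).

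Il33, the alarmin that signals through ST2, is measured by a single probe at chr19:29660344-29660403 (mm7, plus strand), which the design lists under a clone name.
Il33 probe: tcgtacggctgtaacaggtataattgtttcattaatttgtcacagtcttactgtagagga
Its level was 1.88 and 2.70 in treated and 3.73 and 3.11 in untreated adenomas. In epithelium it was -1.55, -0.77 and -3.48 in the tumor-bearing group and -2.34, -0.54 and -1.58 in the tumor-free group. The groups of tissue did not overlap. Il33 was 23.7-fold higher in adenomas (log2 difference 4.57 ± 0.56 SE, adjusted p = 0.000289, limma), 18.7-fold in treated and 41-fold in untreated adenomas over tumor-bearing epithelium (adjusted p = 0.00624 and 0.00214). Without treated adenoma sample 2 the treated difference was 3.81 with an adjusted p of 0.0553.

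Il1a encodes interleukin-1 alpha, which, unlike interleukin-1 beta, is active without cleavage. The array carries 2 probes for it, both shown because only the first gave a signal.
Il1a probe 1, chr2:129041111-129041170: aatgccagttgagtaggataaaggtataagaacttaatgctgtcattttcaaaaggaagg
Il1a probe 2, chr2:129043842-129045576: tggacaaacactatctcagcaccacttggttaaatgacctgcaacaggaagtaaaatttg
Both lie on the minus strand (mm7), and the second spans 1735 bases of the genome, so it crosses an intron. Probe 1 cleared background on all 4 treated and all 3 untreated adenoma arrays, and on none of the 8 epithelium arrays. Its level was -5.48 and -4.87 in treated adenomas and -3.23 and -4.01 in untreated adenomas, against -7.45, -8.39 and -7.40 in tumor-bearing and -9.21, -8.71 and -8.69 in tumor-free epithelium. Since the epithelium values are at background, they only bound the difference. Il1a was at least 3.33-fold higher in adenomas than in epithelium (adjusted p = 3.9e-05, limma), where the bound takes, for each epithelium array, the higher of its lowest signal well above background and the probe's own. Over tumor-bearing epithelium the bounds were 1.38-fold for treated (adjusted p = 0.00687) and 4.05-fold for untreated adenomas (adjusted p = 0.000769). The call for treated adenomas was lost without treated adenoma sample 2 (measured log2 difference 2.27, adjusted p = 0.0626), with another background correction (0.91, adjusted p = 0.12) and with both probes averaged (1.31, adjusted p = 0.054). Probe 2 was above background on 1 of 15 arrays and was not tested.

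Il18, the epithelial cytokine that is matured by caspase-1, ran the other way. Its level, from 10 spots of 1 probe at chr9:50557947-50560075 (mm7, plus strand), was 2.33 and 1.49 in treated and 0.88 and 0.58 in untreated adenomas. It was 4.17, 3.70 and 1.22 in tumor-bearing and 4.00, 3.71 and 4.31 in tumor-free epithelium. Tumor-bearing sample 3 alone among the epithelium samples fell within the adenoma range. Il18 was 4.59-fold lower in adenomas (log2 difference -2.20 ± 0.54 SE, adjusted p = 0.0164, limma). Krt20, a gene of differentiated colon epithelium, differed by -3.97 ± 0.84 in the same comparison, and the part of epithelial cell state in the Il18 value was not tested. Over tumor-free epithelium the untreated adenomas were lower by -3.28 ± 0.77 (adjusted p = 0.0232), and the treated ones differed by -2.10 ± 0.77 (adjusted p = 0.124). Over tumor-bearing epithelium neither adenoma group was called (adjusted p = 0.349 for treated and 0.08 for untreated), and both were without tumor-bearing sample 3, at -2.02 (adjusted p = 0.0185) and -3.21 (adjusted p = 0.00284). The call over both epithelium groups was lost without treated adenoma sample 2 (-1.99, adjusted p = 0.0608) and without untreated adenoma sample 2 (-2.13, adjusted p = 0.0628).

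Il1rn encodes the antagonist that occupies the type I receptor without signalling. Its level was 2.50 and 3.23 in treated and 4.18 and 3.93 in untreated adenomas, 3.09, 4.13 and -0.05 in tumor-bearing and 3.26, 4.21 and 3.77 in tumor-free epithelium. Apart from tumor-bearing sample 3, all samples lay between 2.50 and 4.21. The adenoma and epithelium groups overlapped, and the difference of 0.39 (95% interval -1.15 to 1.93, adjusted p = 0.708, limma) was smaller than the spread between samples. Without tumor-bearing sample 3 its sign turned, to -0.22. The higher levels of Il1a and Il1b in adenoma were therefore measured beside an Il1rn level that was not called different. A second probe, which crosses an intron, was not above background on any array.

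**Figure D2:**
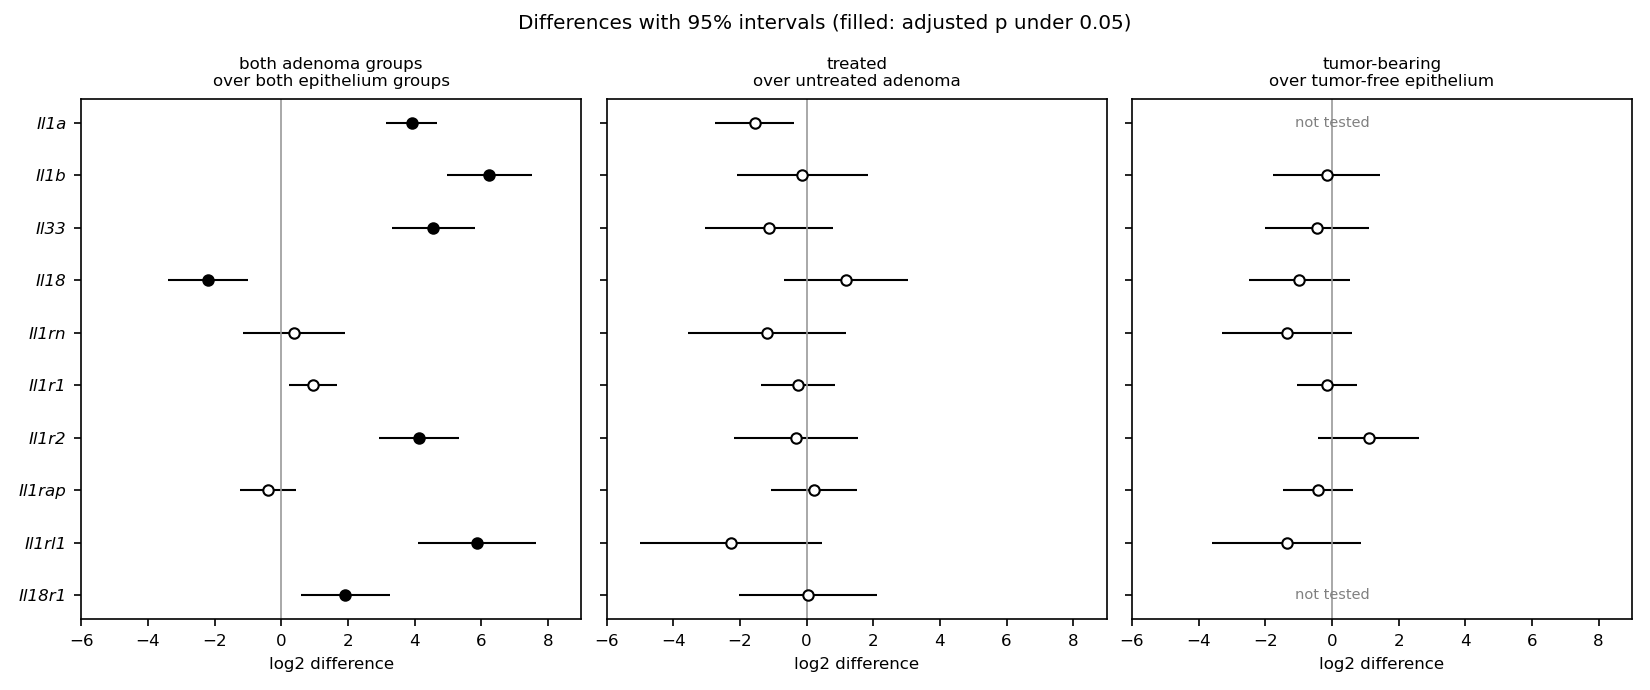
Log2 difference of each member in 3 comparisons (horizontal axis), with 95% intervals from limma, filled where the adjusted p was under 0.05. For adenoma over epithelium, 7 points are filled, Il1b reaching 6.24 and Il18 lying at -2.20, and no point is filled for treated over untreated adenoma or for tumor-bearing over tumor-free epithelium.

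Of the receptor genes, the short-variant probe of Il1rl1 gave the largest called difference, whereas its long-variant probe differed less than Il1r2 did. ST2 is made in a long membrane form that signals and in a short secreted form that captures interleukin-33, and the array has a probe listed for each transcript variant and another listed under the short variant that lies upstream of both. The sequences are shown because the level depends on which variant is read.
Il1rl1 short variant, chr1:40688351-40688410: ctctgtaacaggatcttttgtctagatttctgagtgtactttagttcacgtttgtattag
Il1rl1 long variant, chr1:40705585-40705644: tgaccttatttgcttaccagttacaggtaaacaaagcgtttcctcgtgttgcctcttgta
Il1rl1 upstream, chr1:40680766-40681628: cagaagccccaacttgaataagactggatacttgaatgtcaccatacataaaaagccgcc
All lie on the plus strand (mm7). The short-variant probe, which stands for the gene as the brightest, read 4.20 and 1.84 in treated and 5.27 and 5.28 in untreated adenomas. In epithelium it read -1.65, -3.51 and -2.05 in the tumor-bearing and 0.66, -3.46 and -0.32 in the tumor-free group. All adenoma samples were higher than all epithelium samples, by a mean of 58.4-fold (log2 difference 5.87 ± 0.80 SE, adjusted p = 0.00056, limma). Untreated adenomas were 205-fold (adjusted p = 0.00209) and treated adenomas 42.8-fold (adjusted p = 0.0108) above tumor-bearing epithelium, and the treated call was lost without treated sample 1 (4.24, adjusted p = 0.117).

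The long-variant probe read -0.32 and -1.86 in treated and 0.28 and -0.30 in untreated adenomas, against -3.67, -3.48 and -3.94 in tumor-bearing and -3.15, -4.08 and -3.93 in tumor-free epithelium. It too was higher in every adenoma sample, by 3.16 ± 0.39 on the log2 scale (adjusted p = 0.000411, limma over all probes). The upstream probe cleared background on 1 treated adenoma array of 4, on all 3 untreated ones and on no epithelium array. Its call over both adenoma groups (adjusted p = 0.0025, limma over all probes) passed the filter through the untreated adenomas. These were at least 6.84-fold above tumor-bearing epithelium (adjusted p = 0.00495). Treated adenomas alone were not tested against epithelium with this probe. Within each sample, the short-variant reading minus the long-variant reading averaged 4.70 ± 0.79 in adenomas and 1.99 ± 1.54 in epithelium (SD, n = 4 and 6). This gap was 2.71 larger in adenomas (two-sided exact permutation test over samples, p = 0.0143, where 0.00952 is the smallest possible), a test chosen after the values were seen. Without the near-identical epithelium pair it was 1.86 larger (exact p = 0.0571 with n = 4 and 4, where 0.0286 is the smallest possible). The tissues overlapped in this gap, which was 3.70 in treated adenoma sample 2 and 3.81 in tumor-free epithelium sample 1. Unequal change of both readings is therefore not settled by these samples. The ratio within an array says nothing of the amount of either transcript relative to the other.

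**Figure D3:**
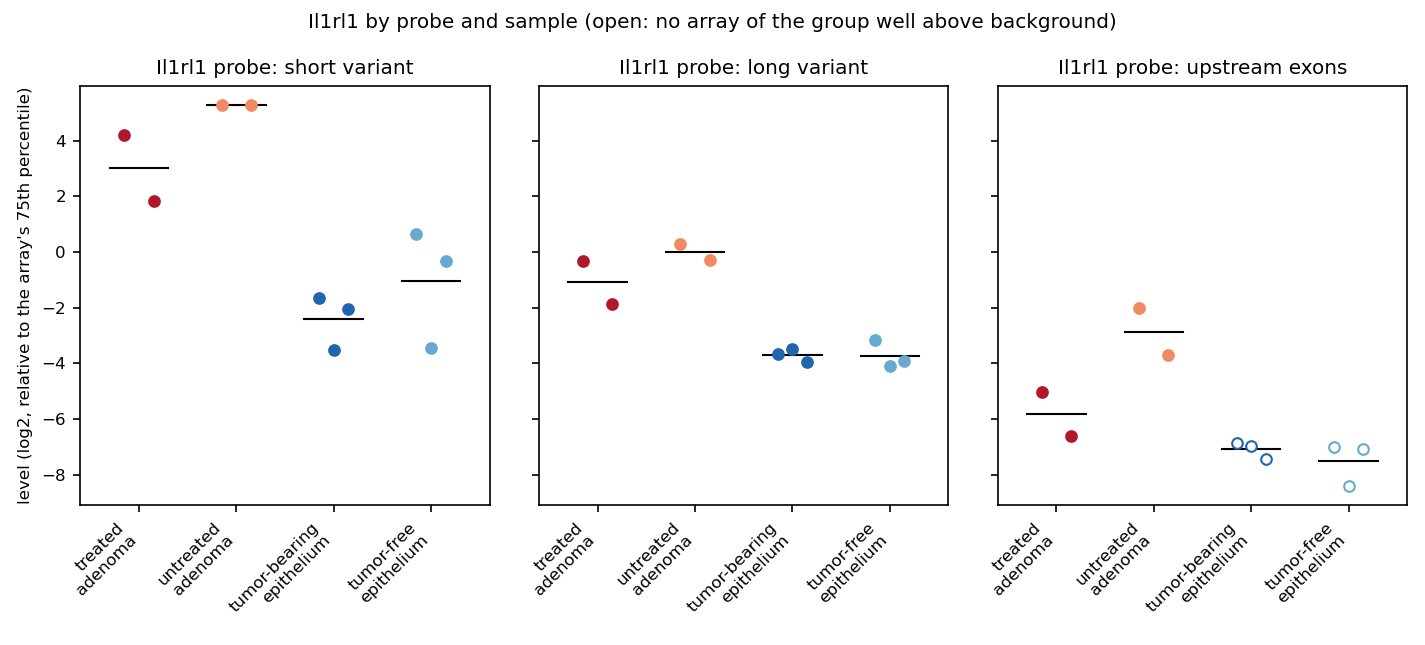
Reading of each of the 3 Il1rl1 probes in each sample (vertical axis, log2 relative to the array's 75th percentile), with a bar at the group mean and open points where no array of the group was above background. All 3 probes are higher in the adenoma samples, and the short-variant probe spans the widest range, from -3.51 to 5.28.

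Il1r2, the decoy receptor that binds interleukin-1 without signalling, read -1.54 and 0.31 in treated and 0.10 and -0.69 in untreated adenomas. In epithelium it read -2.84, -5.21 and -4.05 in the tumor-bearing and -4.51, -5.20 and -5.69 in the tumor-free group. The tissues did not overlap, and Il1r2 was 17.5-fold higher in adenomas (log2 difference 4.13 ± 0.54 SE, adjusted p = 0.000437, limma). A second probe, which crosses an intron and was above background on all adenoma and no epithelium arrays, was at least 5.36-fold higher (adjusted p = 0.00126). Over tumor-bearing epithelium the differences were 3.42 for treated (adjusted p = 0.0152) and 3.74 for untreated adenomas (adjusted p = 0.0116). These calls were lost without treated sample 2 (2.50, adjusted p = 0.118) and without either untreated sample (3.35 and 4.14, adjusted p = 0.0941 and 0.06), and both were lost without the near-identical epithelium pair (2.83 and 3.15, adjusted p = 0.0633 and 0.0507).

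Il1r1, the signalling type I receptor, read 1.92 and 1.60 in treated and 1.62 and 2.43 in untreated adenomas, against 0.58, 0.70 and 1.32 in tumor-bearing and 0.93, 0.72 and 1.37 in tumor-free epithelium. Although all 4 adenoma samples stood above all 6 epithelium samples, the difference of 0.95 ± 0.32 did not pass (adjusted p = 0.0592, limma). It passed in 8 of 20 alternatives, among them the fit without tumor-bearing sample 3 (1.07, adjusted p = 0.0299). Il1rap, the shared accessory chain, stayed between -4.63 and -2.91 in all 10 samples and differed by -0.40 (95% interval -1.23 to 0.43, adjusted p = 0.464). A probe listed for its second transcript variant differed by 0.61 ± 0.82 (adjusted p = 0.63), and the probe listed for the first variant was not above background on any array.

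Il18r1, the ligand-binding chain of the interleukin-18 receptor, read -2.97 and -3.90 in treated and -3.99 and -2.98 in untreated adenomas, against -6.12, -4.64 and -7.29 in tumor-bearing and -3.87, -4.26 and -6.13 in tumor-free epithelium. Its call, 3.79-fold higher in adenomas (adjusted p = 0.0454, limma), lay close to the threshold, and tumor-free sample 1 overlapped the adenomas. The probe was above background on every adenoma array, on 1 of 4 tumor-bearing and on 3 of 4 tumor-free arrays. The call held in 9 of 20 alternatives and was lost without any one of 8 of the 10 samples (adjusted p 0.0557 to 0.15 with limma). Its partner chain Il18rap was above background on 1 of the 14 arrays that measured it and was not tested.

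The pair of near-identical epithelium arrays did not carry the calls of the leading members. Without them the differences were 6.15 for Il1b (adjusted p = 0.000898), 5.10 for Il33 (0.000531), 3.79 for Il1a on the measured scale (0.000467), 3.82 for Il1r2 (0.00297) and 4.98 for Il1rl1 (0.000812). Il18r1 was still called (adjusted p = 0.0329), and Il18 was not (-2.11, adjusted p = 0.063).

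Scan dates could be compared for adenoma against tumor-bearing epithelium. Within scan dates 2 and 4 treated adenoma arrays exceeded tumor-bearing ones by 4.36 and 7.94 for Il1b, 3.44 and 6.23 for Il33, 5.88 and 3.91 for Il1rl1 and 1.32 and 4.37 for Il1r2. Within dates 1 and 2 untreated adenoma arrays exceeded them by 6.30 and 5.29 for Il1b, 4.92 and 5.26 for Il33, 7.91 and 6.87 for Il1rl1 and 4.11 and 2.98 for Il1r2. Il1a read higher in adenoma within each of these dates, but its tumor-bearing values were at background and no size is given. Dates 1 and 2 hold near-identical arrays and are not separate evidence. Il18 differed by -3.06 and -3.30 for untreated, and by -1.84 and 0.25 for treated adenomas, so its direction did not hold on date 4, where tumor-bearing sample 3 was the only epithelium. No date held both epithelium groups, so scan date and group cannot be told apart there.

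The second question was whether a week of sulindac with atorvastatin changed the family in adenomas. None of the 10 members was called in treated over untreated adenomas, where 0.227% of 17629 genes were called (40 genes, 0.125% higher and 0.102% lower), and 1 member had an unadjusted p under 0.05 against 2089 genes. That member was Il1a, lower by 1.55 on the log2 scale (-1.55 ± 0.54 SE, 95% interval -2.74 to -0.36, adjusted p = 0.304, limma), with both treated samples below both untreated ones. Il33 differed by -1.13 (interval -3.05 to 0.79) and the short-variant Il1rl1 probe by -2.26 (interval -4.99 to 0.48). Il1rn differed by -1.19 (interval -3.57 to 1.20). For these genes too the treated samples lay below the untreated samples, but with 2 samples a group the intervals reach 0. The Il1rl1 upstream probe, above background on 1 of 4 treated arrays, read lower in both treated samples and was not called (adjusted p = 0.224 over all probes).

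Il1b differed by -0.13 between the adenoma groups (interval -2.09 to 1.84), and these samples cannot tell apart the differences inside that interval. Il18 differed by 1.18 (interval -0.68 to 3.05), with both treated samples above both untreated ones. Il1r2 differed by -0.32 (interval -2.18 to 1.53), Il1r1 by -0.26 (-1.38 to 0.85), Il1rap by 0.23 (-1.06 to 1.52) and Il18r1 by 0.05 (-2.03 to 2.13). Within scan dates 2 and 5, which hold both adenoma groups, Il1a differed by -2.25 and -0.82, Il33 by -1.83 and -0.43, Il1rl1 by -0.99 and -3.45, and Il18 by 1.45 and 0.92. Il1b (-0.93 and 0.70) and Il1r2 (-1.66 and 0.99) changed sign between these dates. Fits on 15 separate arrays, which count near-identical arrays as separate samples, made calls here. With scan date as a block these were Il1a (-1.56, adjusted p = 0.0289) and Il18 (1.55, adjusted p = 0.0317), and without a block Il1a (-1.53, adjusted p = 0.0104) and Il1rl1 (-2.84, adjusted p = 0.037). As the drugs were combined in 1 diet, the effect of either cannot be told apart from that of the other.

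The epithelium of tumor-bearing mice was set over that of tumor-free mice to ask whether the family differs in normal mucosa beside tumors. Of the 8 members tested none was called by limma, and none had an unadjusted p under 0.05; the background is 0% of 17648 genes called, with 464 at an unadjusted p under 0.05. Differences ran between -1.36 for Il1rl1 (interval -3.59 to 0.87) and 1.10 for Il1r2 (interval -0.41 to 2.61). Il1b differed by -0.16 (interval -1.77 to 1.44) and Il33 by -0.45 (interval -2.01 to 1.12). Il1a and Il18r1 were not tested, as neither group had them above background on every array. The near-identical pair lies in this comparison; without it the differences ran between -2.02 for Il1rl1 and 1.66 for Il1r2, and again no member was called.

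The remaining genes of the pathway were counted from lists chosen with earlier results of these data known. Of the genes that interleukin-1 signalling is known to induce, 11 of 19 tested were higher in adenomas and none was lower. Their median was 2.31 against -0.17 over all genes, and 9.22% of all genes were called higher. Only 13 of these 19 could be tested between the epithelium groups, against 17648 of 18913 over all genes. The rest of the list passed the background filter through the adenomas alone and could hardly come out lower. The counts and the median are thus partly set by that filter. Lcn2, which encodes an iron-sequestering protein of the epithelial defence, was higher in all 4 adenoma samples (adjusted p = 2.88e-05, limma). The neutrophil attractant Cxcl2 was higher too (adjusted p = 3.28e-05). No fold is given for either, since Lcn2 was above background on 2 of 8 and Cxcl2 on 1 of 8 epithelium arrays. Ptgs2, which encodes cyclooxygenase-2, was 24.7-fold higher (adjusted p = 0.00326), with overlapping samples and 6 of 8 epithelium arrays above background. The cytokine genes Il6 and Csf2 were above background on no epithelium array and were at least 23.7-fold and 13.4-fold higher (adjusted p = 0.000131 and 3.73e-05). Nfkbiz, an NF-kappa B cofactor, differed by 0.35 ± 0.47 (adjusted p = 0.618). Between treated and untreated adenomas none of 18 tested was called by limma, with 1 at an unadjusted p under 0.05. Over all 50 other pathway genes tested between the adenoma groups there were 0 calls, with 4 at an unadjusted p under 0.05, and over 44 tested between the epithelium groups 0 calls, with 2 at an unadjusted p under 0.05.

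The inflammasome processes interleukin-1 beta and interleukin-18. Of 11 of its genes tested, 6 were lower in adenomas and none was higher, with a median of -1.37, where 12.7% of all genes were called lower. The other 5 were not called. Nlrp6, a sensor of the intestinal epithelium, was lower by -2.96 ± 0.37 (adjusted p = 0.000315, limma). The adaptor Pycard differed by -2.17 ± 0.34 (adjusted p = 0.00134), and Casp1, the protease that cleaves both cytokines, by -1.94 ± 0.34 (adjusted p = 0.00268). The inflammasome sensor gene Naip2 differed by -1.85 ± 0.34 (adjusted p = 0.00328, limma). Nlrp3, the sensor best known from myeloid cells, was also lower, at -1.09 ± 0.33 (adjusted p = 0.0389). Casp1 lay at 2.50 to 2.71 in treated and 1.77 to 2.03 in untreated adenomas, against 3.52 to 4.83 in tumor-bearing and 3.76 to 4.39 in tumor-free epithelium. With Il18 lower and Il1b higher, the substrates of Casp1 were thus split in direction while the gene itself was lower in every adenoma sample.

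**Figure D4:**
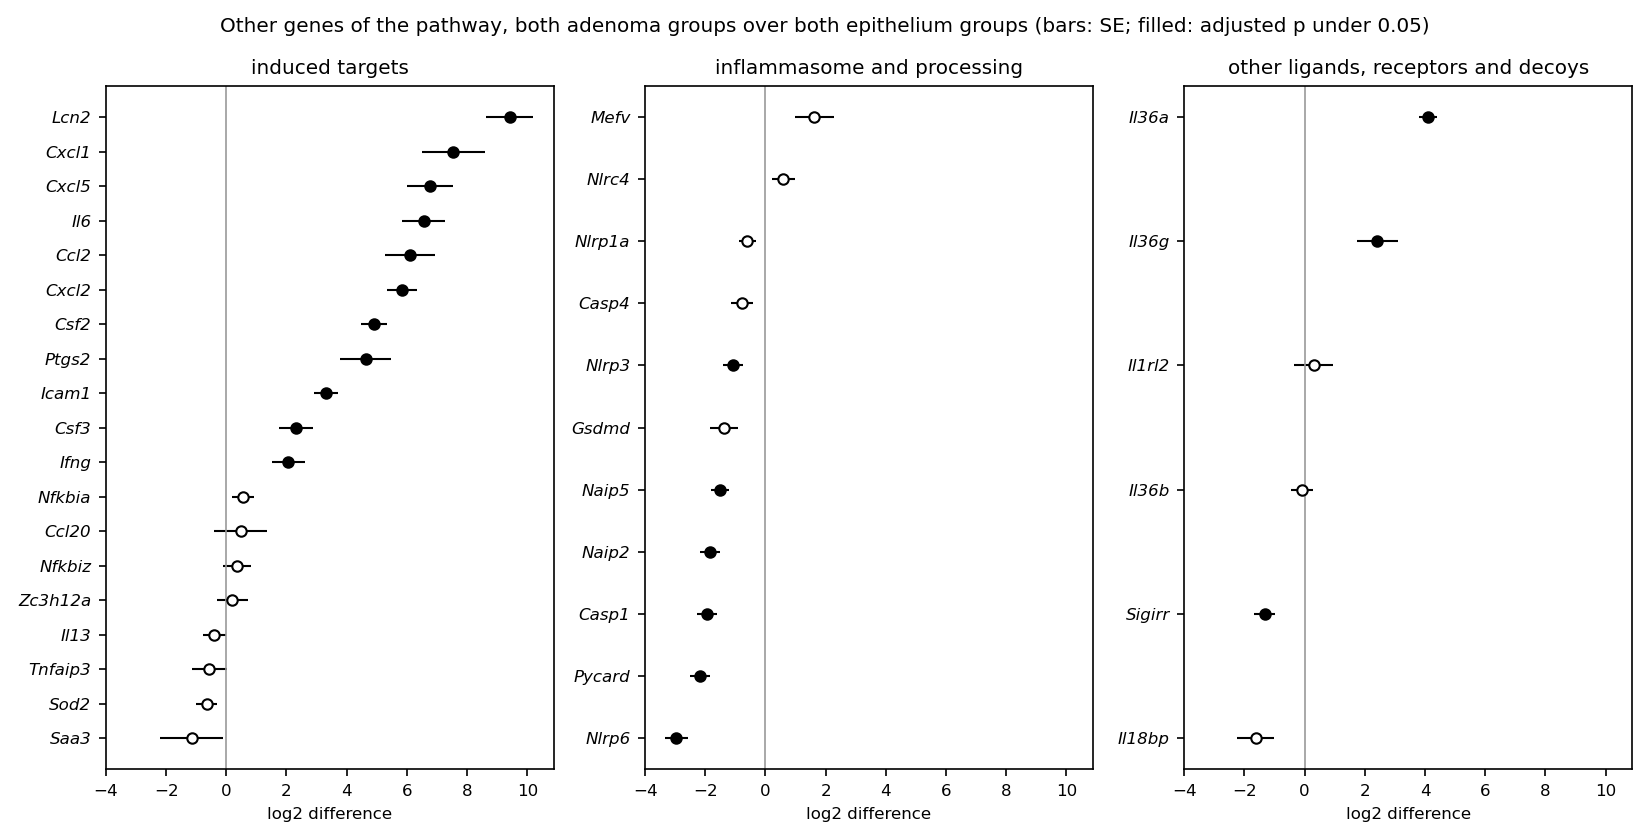
Log2 difference of other pathway genes in both adenoma groups over both epithelium groups (horizontal axis), with bars of 1 SE, filled where the adjusted p was under 0.05. All 11 filled induced targets lie above 0, their plotted size being uncertain where the epithelium was near background, whereas the filled inflammasome genes lie between -2.96 for Nlrp6 and -1.09 for Nlrp3.

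Among the other ligands, 2 of 3 tested were higher in adenomas, where 9.22% of all genes were called higher. Only 1 of the 3 could be tested between the epithelium groups. Both called ligands passed the background filter through the adenomas alone and could hardly come out lower, so the count is partly set by that filter. Il36a, an epithelial cytokine of the same family, was above background on all 7 adenoma arrays and no epithelium array. It was at least 4.65-fold higher (adjusted p = 1.11e-05, limma). Il36g was above background on 6 of 7 adenoma arrays and no epithelium array. Its bound over the mean of both adenoma groups was 1.31-fold (adjusted p = 0.0317), but its adenoma and epithelium samples overlapped. Of the other receptors and decoys, 1 of 3 tested was lower: Sigirr, an inhibitory receptor of the family, by -1.33 ± 0.34 (adjusted p = 0.0182). Il18bp, the soluble decoy of interleukin-18, differed by -1.62 ± 0.62 (adjusted p = 0.0855). Of 16 signalling genes 1 was called, a smaller share than the 21.9% of all genes. It was Nfkb1, a subunit gene of NF-kappa B, which was 2.11-fold higher (adjusted p = 0.0245), and the shared adaptor Myd88 differed by -0.45 ± 0.34 (adjusted p = 0.365).

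Markers of some other cell types differed between the same tissues. The log2 of the summed levels of the 10 neutrophil markers on the array was 4.02 and 5.55 in treated and 4.53 and 4.23 in untreated adenomas. It was -2.71 to -2.03 in tumor-bearing and -2.58 to -1.78 in tumor-free epithelium. Of 7 neutrophil markers tested, 6 were higher in adenomas, where 9.22% of all genes were called higher. Only 2 could be tested between the epithelium groups, so most passed the background filter through the adenomas alone. Retnlg, Mmp8 and the chemokine receptor gene Cxcr2 were above background on no epithelium array. Elane, an early granule gene, was above it on no treated adenoma and no epithelium array. Ngp and Camp were above background on some treated but on no untreated adenoma array, and neither was called between the tissues. In epithelium, Ngp was above it on some tumor-free but no tumor-bearing array, and Camp on some tumor-bearing but no tumor-free array. Neutrophils are a known source of Il1b and of the decoy Il1r2; the part of these cells in the values of Il1b and Il1r2 was not tested. Among the adenoma samples, treated sample 1 had the lowest neutrophil sum and Il1r2 level, and treated sample 2 the highest of both. Il1b was highest in untreated sample 1 and nearly equal in treated sample 1 (2.44) and untreated sample 2 (2.47). An order of 4 samples cannot bear on the source of these values, and none is drawn from it.

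Macrophage and dendritic markers lay at 6.05 to 6.88 in treated and 6.15 to 6.46 in untreated adenomas, and at 5.39 to 6.57 in tumor-bearing and 5.20 to 6.00 in tumor-free epithelium, with 0 of 11 called by limma and 2 at an unadjusted p under 0.05. Mast cell markers, from a cell type known to carry ST2, lay at 2.79 to 2.92 in treated and 2.82 to 3.07 in untreated adenomas, and at 1.22 to 2.51 in tumor-bearing and 1.50 to 2.43 in tumor-free epithelium. Of 9 mast cell genes tested, Hdc, Mcpt1, Mcpt2 and Tpsab1 were higher and Kit, which other cells also carry, was lower in adenomas. Over all genes 9.22% were called higher and 12.7% lower. The mast cell proteases Mcpt2, Tpsb2 and Tpsab1 were above background on no treated adenoma array. Mcpt2 and Tpsab1 were above it on no epithelium array either, so their calls rest on the untreated adenomas and do not describe treated ones. T and innate lymphoid markers, which include other carriers of ST2 and of the interleukin-18 receptor, had 0 of 9 genes called by limma, with 5 at an unadjusted p under 0.05. Between treated and untreated adenomas 1 of 8 mast cell genes was called by limma, Mcpt2, which was lower (adjusted p = 0.0091), and 5 had an unadjusted p under 0.05. The part of mast and lymphoid cells in the Il1rl1 and Il18r1 values was not tested.

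Squamous epithelium is a known source of Il1a, Il1rn and the Il36 cytokines, and the squamous lining of the anus borders the distal colon. Squamous markers summed to 4.93 and 1.90 in treated and 2.96 and 4.08 in untreated adenomas, against 1.13 to 2.66 in tumor-bearing and 1.74 to 2.77 in tumor-free epithelium. The keratin gene Krt14 was the only 1 of 7 tested that was called between the tissues, against 21.9% of all genes. It was higher in adenomas (3.50 ± 0.51, adjusted p = 0.00087, limma). Krt4 and Trp63 were above background on no adenoma array. The part of squamous cells in the Il1a and Il1rn values was not tested.

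Some other marker lists held genes called lower in adenomas, where 12.7% of all genes were called lower and 9.22% higher. B and plasma cell markers summed to -2.00 to -1.95 in treated and -1.10 to -0.07 in untreated adenomas, against 4.25 to 5.18 in tumor-bearing and 4.19 to 4.75 in tumor-free epithelium, with 2 of 3 tested called lower (Cd79b and Jchain). Of 6 smooth muscle genes, 4 were lower (Acta2, Cnn1, Myh11 and Tagln). Of 2 eosinophil genes tested 1 was lower (Prg2). Prg2 was above background on no adenoma array, so it was tested through the epithelium alone and could hardly come out higher. The eosinophil sums overlapped, at -4.72 to -2.46 in untreated adenomas against -3.48 to -2.05 in tumor-free epithelium. Of 6 endothelial genes 1, Cdh5, was higher, and 0 of 8 fibroblast genes were called by limma, with 2 at an unadjusted p under 0.05. The part of these cells in the members' values was not tested.

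**Figure D5:**
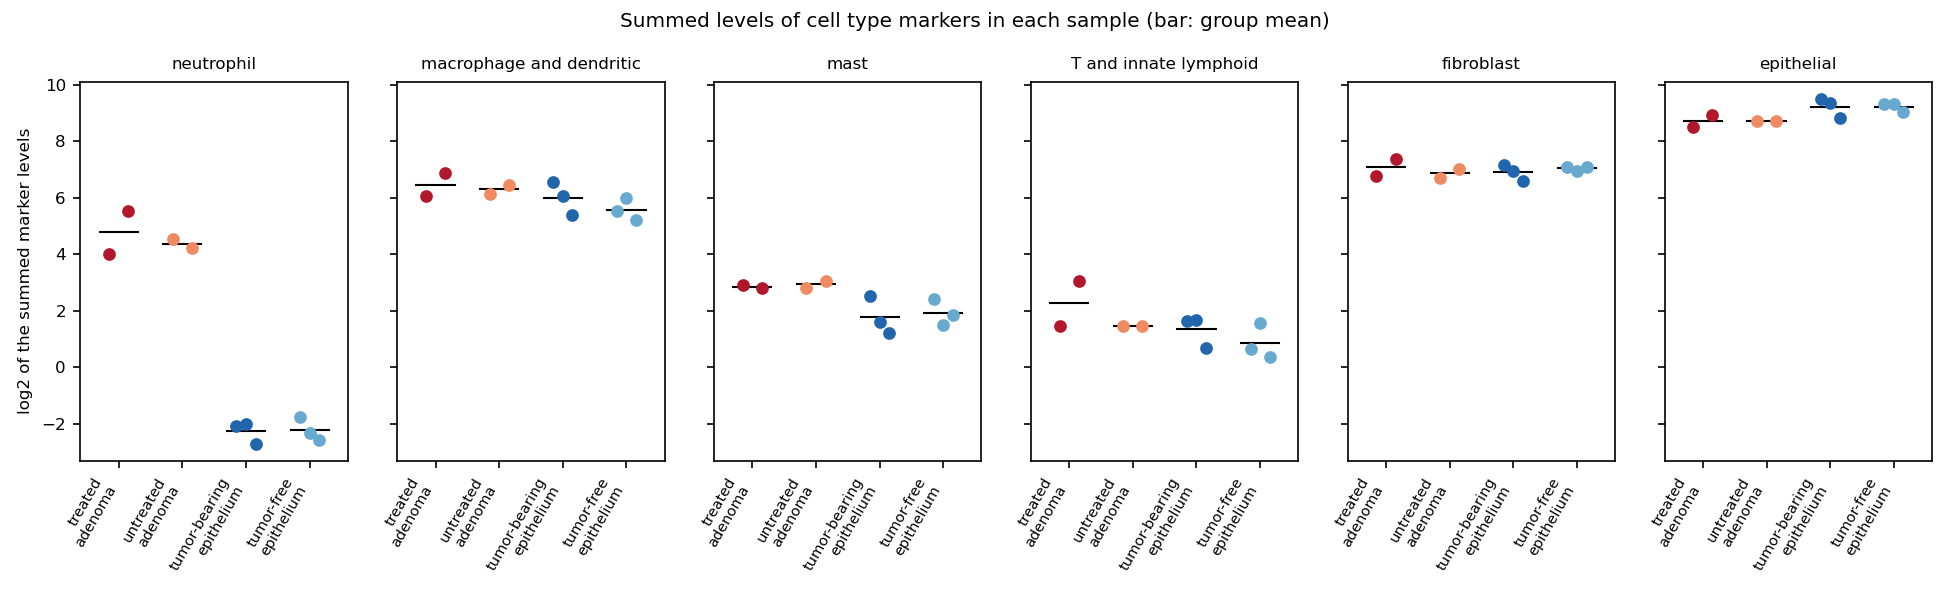
Summed levels of 6 marker lists in each sample (vertical axis, log2 of the summed levels), with a bar at the group mean. Neutrophil markers lie between 4.02 and 5.55 in adenomas and between -2.71 and -1.78 in epithelium, while fibroblast sums stay between 6.61 and 7.37 and epithelial sums between 8.49 and 9.51.

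For each called member the genes with the most similar centred levels over the 10 samples were taken from 15149 genes, by the root mean square of the log2 differences. Il1b was closest to Fam89a (0.589), 2700046A07Rik (0.629) and Mmp10 (0.686), a matrix metalloproteinase gene. Nearest to Il33 were Plat (0.654), which encodes tissue plasminogen activator, Lama1 (0.658) and Iapp (0.681). Il1rl1 lay closest to Dhh (0.764), Dio2 (0.870) and Ptgs2 (0.981). For Il1a they were Erp27 (0.499), Mmp12 (0.516) and Klk6 (0.524), and for Il1r2 Fst (0.497), Erp27 (0.558) and Klk6 (0.568). Il18 was nearest to Scn11a (0.362), Hrg (0.392) and Cttnbp2 (0.437), and Il18r1 was near Ccn4 (0.413) and Dusp10 (0.545). These samples share the contrast between adenoma and epithelium, which any gene that differs between the tissues follows.

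Promoter windows of the members, RefSeq sequences of 300 bases on assembly GRCm38.p6, were available for all 10 genes as 17 windows. The letters TATAAA, searched on both strands, occurred in 6 of the 17, against 13.6% of 32851 windows of the same length. In Il1a, Il1b and the second start of Il33, which were all higher in adenomas, the match begins at positions -32, -31 and -29 relative to the start. The other 3 matches begin at -203 in the first start of Il33, at -175 in Il18, which was lower in adenomas, and at 14 in a start of Il1rn. Il1r2, Il1rl1 and Il18r1, which were also higher in adenomas, had no match in any of their windows. The windows of the first 3 are shown because they share that placement, which was picked out after the matches were seen, with the matched letters in capitals.
Il1a, chr2:129309923-129310222, minus strand: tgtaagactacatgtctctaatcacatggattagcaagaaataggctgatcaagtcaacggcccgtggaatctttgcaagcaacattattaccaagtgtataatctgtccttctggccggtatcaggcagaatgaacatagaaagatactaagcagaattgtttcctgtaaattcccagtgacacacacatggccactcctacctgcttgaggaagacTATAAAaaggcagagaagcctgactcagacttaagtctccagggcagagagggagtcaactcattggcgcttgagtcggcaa
Il1b, chr2:129371090-129371389, minus strand: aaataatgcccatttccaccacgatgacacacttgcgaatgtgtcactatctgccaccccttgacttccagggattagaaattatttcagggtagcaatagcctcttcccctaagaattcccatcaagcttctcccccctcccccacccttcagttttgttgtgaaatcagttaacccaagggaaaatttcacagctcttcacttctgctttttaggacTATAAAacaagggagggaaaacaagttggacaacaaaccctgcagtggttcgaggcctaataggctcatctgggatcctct
Il33, chr19:29945540-29945839, plus strand: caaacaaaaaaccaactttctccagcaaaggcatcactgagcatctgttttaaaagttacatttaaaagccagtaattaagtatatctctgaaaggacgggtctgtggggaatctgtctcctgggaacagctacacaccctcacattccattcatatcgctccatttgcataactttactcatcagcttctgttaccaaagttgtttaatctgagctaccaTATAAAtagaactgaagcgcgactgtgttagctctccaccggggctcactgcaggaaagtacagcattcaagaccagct
The kappa B consensus, of 10 letters on either strand, occurred in 1 of the 17 windows, at a start of Il1r1, against 8.46% of all windows. A match is a description of these letters, and no match says only that they are not in this window.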

How the data were processed

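RNA was measured on 15 single-colour Agilent mouse arrays. Agilent Feature Extraction 9.5.3 read the scans, per the file headers, and the authors deposited a background-subtracted processed intensity per spot, not normalized between arrays. The authors' deposited value table holds log2 values and served as an alternative; its 4 columns of tumor-bearing epithelium matched the scanner files of that group in reverse order and were set beside the file they matched.

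Levels are log2 intensity minus the 75th percentile of all non-control probes of that array. Control and outlier spots were left out, and spots of a probe were averaged. Probes were named through RefSeq (assembly GRCm38.p6, names only); coordinates are those of the design (mm7). The brightest probe stood for a gene. Near-identical arrays of a group were averaged. All 4 groups entered 1 limma fit (3.58.1, R 4.3.3; 4.31 prior and 6 residual degrees of freedom); tests were two-sided and adjusted by Benjamini-Hochberg, called under 0.05. The script was tested on simulated data. Members, lists and the rule for naming genes (all members; up to 4 called genes of each list by moderated t; a fixed few; 3 nearest patterns, of which 1 is not reported here) were chosen with earlier results of these data known. Same-numbered arrays of different groups share no stated animal.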

Additional observations from a re-analysis of the deposited data

How the results depend on the processing

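With both adenoma groups over both epithelium groups, Il1a, Il1b, Il33, Il1r2 and Il1rl1 were called in all 20 alternatives run, which covered background correction, scaling, filtering, probe choice, array grouping and the samples left out. Il18 kept its call in 17 and Il18r1 in 9. Leaving out 1 sample at a time gave 5 to 7 members called there, 4 to 6 for untreated adenoma over tumor-bearing epithelium, 2 to 6 for treated adenoma over it, with 2 without treated adenoma sample 2, and 0 to 0 for both other comparisons. Where this leaves an adenoma group with 1 sample, that sample is assumed to vary like the other groups.

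Fits that count near-identical arrays separately narrow the measured spread. With all 15 arrays entered separately, 2 members were called in treated over untreated adenoma (Il1a and Il1rl1, both lower), and 8 each in untreated and in treated adenoma over tumor-bearing epithelium. With near-identical arrays as a random block, 8 were called in untreated adenoma over tumor-bearing epithelium. With scan date as a fixed block the counts were 2 between the adenomas (Il1a lower and Il18 higher) and 8 for untreated adenoma over tumor-bearing epithelium, and with the slide as a random block 1 and 8. Comparisons with tumor-free epithelium could not be fitted with scan date, because no date holds both it and another group.

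With a replicate block on 15 separate arrays, 2 members were called between the adenomas, and 8 each in untreated and in treated adenoma over tumor-bearing epithelium. Same-numbered arrays of different groups had a median correlation of deviations of 0.0468 over 21 pairs, 7 of 15 arrays correlated best with their own number, and the numbers do not pair the arrays.

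The signs that turned under these alternatives all belonged to differences that were not called. For Il1b these were 0.277 with scan date, 0.154 with the slide and 0.148 with the replicate block between the adenomas, and 0.425 with separate arrays, 0.341 with the slide and 0.425 with the replicate block between the epithelia. For Il1r2 between the adenomas they were 0.0098 with separate arrays, 0.0773 with the slide and 0.0397 with the replicate block. For Il18r1 between the adenomas they were -0.0187 with separate arrays, -0.0015 with normexp and -0.0257 with the authors' table. For Il1rap they were -0.034 with scan date and -0.0253 with the replicate block between the adenomas, and 0.0409 with quantile normalization for treated adenoma over tumor-bearing epithelium. Il1rn between the adenomas turned to 0.0937 as a mean over probes. Leaving out 1 sample at a time turned the sign of the following between its lowest and highest value: between the adenomas Il1b (-0.594 to 0.344), Il1r1 (-0.671 to 0.145), Il1r2 (-1.25 to 0.604) and Il18r1 (-0.455 to 0.55); between the epithelia Il1b (-0.891 to 0.467), Il1r1 (-0.369 to 0.0401), Il1rap (-0.76 to 0.00694) and Il33 (-1.03 to 0.327); in treated adenoma over tumor-bearing epithelium Il1rn (-0.744 to 1.35) and Il1rap (-0.263 to 0.215); and in both adenoma over both epithelium groups Il1rn (-0.221 to 0.825). The cause was not tested. Among scalings, the median over all genes in adenoma over epithelium moved from -0.17 to -0.03 with quantile normalization. Signal near background limits Il1a, Il1rap and Il18r1.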
